A study of Mus musculus with 6 samples.

Results

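The amino acid starvation and unfolded protein responses were followed through 10 genes, Atf4, Ddit3, Asns, Chac1, Trib3, Sesn2, Psat1, Phgdh, Xbp1 and Herpud1, out of 21341 genes tested on the arrays. Each was taken by its gene name, or an alias of it, among the spots that carry gene probes, which gave 14 of 41174 gene probes. All 14 probes were well above background on 6 of 6 arrays, so the filter on dim probes removed no member, and no member probe was saturated or marked as an outlier.

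Cells under amino acid shortage accumulate uncharged tRNA, which activates the kinase Gcn2 (Eif2ak4). Misfolded protein in the endoplasmic reticulum activates Perk (Eif2ak3) instead. Both kinases phosphorylate the alpha subunit of the translation factor eIF2, which slows most protein synthesis and favours translation of the transcription factor Atf4. Atf4 then drives genes for amino acid synthesis and uptake, together with genes such as Ddit3, Trib3 and Chac1 that act when stress persists. The unfolded protein response has further arms, in which the sensor Ire1 (Ern1) splices Xbp1 mRNA and Atf6 is cut to release a transcription factor, and these raise chaperones and the degradation machinery. Because Atf4 is controlled largely at translation, its mRNA does not report its activity, and protein or phosphorylation was not measured here.

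Total RNA of 2 lines of S49, a mouse T lymphoma that grows in suspension, was hybridised to Agilent arrays labelled with Cy3. Neo is the S49 parental line and MR 4-25 is a line labelled as recovered from mannitol, a sugar alcohol that raises osmolarity. Each line had 3 samples, 1 array each, and all were untreated at harvest. The comparison is therefore of untreated cells of both lines and not of an acute osmotic or starvation response. Both lines grew in RPMI-1640 with 4.8 mM glutamine, 10% heat-inactivated serum and antibiotics under 7% CO2, an amino acid-replete medium. The labels give no strain, age, genotype or allele beyond the line names. They do not state whether MR 4-25 is 1 clone, nor whether the replicates of a line came from different cultures. The p-values therefore reflect only sample-to-sample spread, which may be technical. In bulk RNA, more cells with a transcript and more of it per cell cannot be told apart.

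The 75th percentile of gene-spot signal was 844 to 988 intensity units on 5 arrays and 521 on the array of MR 4-25 replicate 3, where 61.3% of gene probes were well above background against 69.9% to 76.2% elsewhere. From 3 member probes on MR 4-25 3 to 9 on Neo 1 were flagged as read at low scanner gain and scaled up. The effect of this on the differences was not tested. Neo 1, Neo 2, MR 4-25 1 and MR 4-25 2 lay on slide 1, and Neo 3 and MR 4-25 3 on slide 2. Of the markers of the labelled cell type, 8 of 8 T cell genes were above background on every array, with a summed signal of 229 to 271 times the 75th percentile in Neo and 224 to 247 in MR 4-25. Summed signals of B cell, erythroid, fibroblast and epithelial markers reached at most 1.32 times that percentile. Many of these genes were still above background. Per array this held for 2 to 4 of 4 B cell, 3 or 4 of 4 fibroblast and 2 or 3 of 3 erythroid genes. Of the epithelial genes, Krt18 was above background on 6 arrays, Krt8 on 5, and Epcam and Cdh1 on 0. Myeloid markers summed to 1.04 to 1.13 in Neo and 1.35 to 1.61 in MR 4-25, and their part in the results below was not tested.

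Probe sequences are shown for members whose reading depends on where the probe lies. Positions come from the array's own coordinates on mouse build mm7, and exon, intron and UTR annotation of that build was not used here. The Atf4 probe (chr15:80341130-80341189, plus strand) and the Xbp1 probe (chr11:5476970-5477029, plus strand) each lie on an uninterrupted stretch. The Ddit3 probe (chr10:126796858-126797161, plus strand) and a Phgdh probe (chr3:98185627-98186335, minus strand) are 60 bases long but span 304 and 709 bases of the genome, so each is read from sequence that is joined in the mRNA.
Atf4 A_52_P139727: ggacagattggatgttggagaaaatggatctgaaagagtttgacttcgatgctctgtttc
Ddit3 A_52_P533146: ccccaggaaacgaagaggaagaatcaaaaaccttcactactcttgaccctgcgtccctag
Xbp1 A_52_P185079: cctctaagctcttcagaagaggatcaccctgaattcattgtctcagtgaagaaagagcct
Phgdh A_52_P661606: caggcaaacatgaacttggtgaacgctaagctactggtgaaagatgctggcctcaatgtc

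Promoter stretches are shown for the 4 members whose RefSeq promoter window (build GRCm38.p6, 250 bases before to 50 after the start) held the core letters of an amino acid response element, the kind of site bound by Atf4 with its C/EBP partners. The letters searched were TGATGNAA on both strands, and they occurred in 1304 of 32851 promoter windows (3.97%). In Asns (chr6:7693210-7693329, minus strand) the match lay at -23 to -16 on the strand of the gene. In Chac1 (chr2:119351012-119351111, plus strand) it lay at -193 to -186, in Herpud1 (chr8:94386299-94386398, plus strand) at -112 to -105 and in Trib3 (chr2:152344027-152344056, minus strand) at +15 to +22, each on the opposite strand. Herpud1 also held the ERSE-II of the unfolded protein response, searched as ATTGG and CCACG with 1 base between, at -52 to -42 on its own strand, which occurred in 12 of 32851 windows (0.0365%). Capitals mark these matches, which do not overlap.
Asns: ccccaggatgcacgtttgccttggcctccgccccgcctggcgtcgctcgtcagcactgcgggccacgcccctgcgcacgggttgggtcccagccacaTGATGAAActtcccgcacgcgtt
Chac1: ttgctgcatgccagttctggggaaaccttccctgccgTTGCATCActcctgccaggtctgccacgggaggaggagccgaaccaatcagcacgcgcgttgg
Herpud1: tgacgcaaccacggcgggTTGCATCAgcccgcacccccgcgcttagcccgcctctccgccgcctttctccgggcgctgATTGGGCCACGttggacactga
Trib3: tagctcaggtTTACATCAgccgggcgggga

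All 10 members had a promoter window in the table, 11 windows in all. Neither the ERSE, searched on both strands as CCAAT and CCACG with 9 bases between (0.119% of all windows), nor the UPRE letters TGACGTGG (0.676%) occurred in them. A match is a description of the letters in the window. It gives no evidence of binding in S49 cells.

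None of the 10 members rose or fell in MR 4-25 at an adjusted p of 0.05 in limma with Benjamini-Hochberg adjustment over 21341 genes, where 263 genes (1.23%) did. At an unadjusted p under 0.05, 2 members were past the threshold, Ddit3 and Trib3, against 13.3% of all genes. Log2 differences, MR 4-25 minus Neo, were positive for 9 of 10 members, with a median of 0.21, while 50.6% of all genes were positive with a median of 0.01. Under normexp background correction the median of all genes moved to 0.34, and relative to it 2 of 10 members, Ddit3 and Trib3, were above. The members' median difference was 0.22 on slide 1 and 0.31 on slide 2, where all genes had medians of -0.02 and 0.09. It was 0.13 without MR 4-25 1, 0.33 without MR 4-25 3 and 0.10 with array weights. Values below are log2 signals of a probe relative to the 75th percentile of its array, so levels of different probes are not compared.

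**Figure D1:**
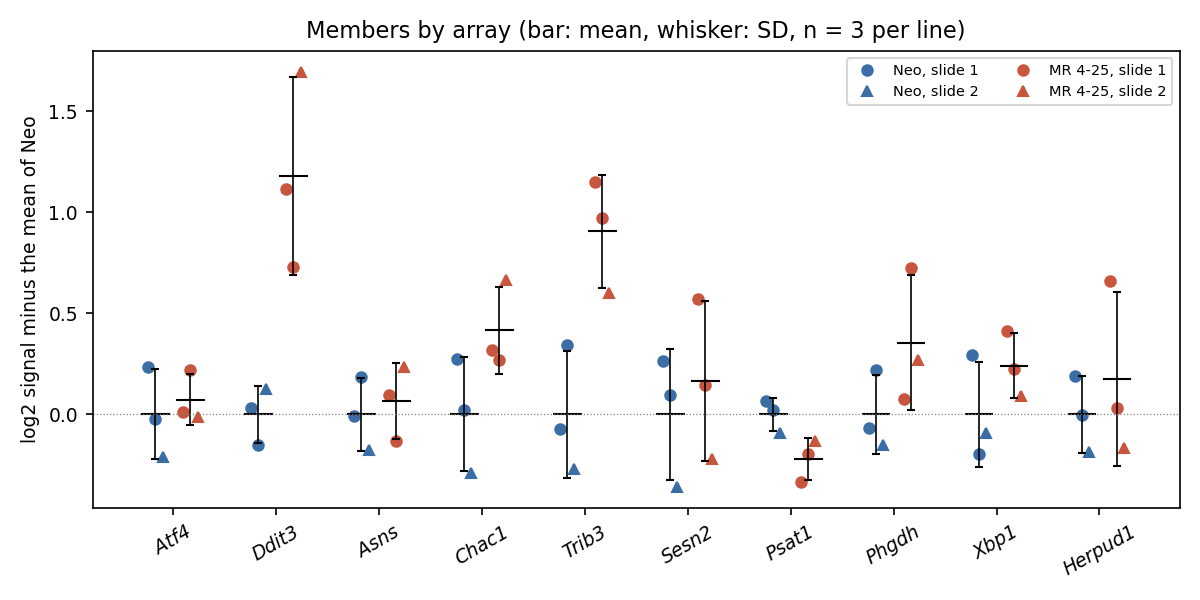
The vertical axis gives the log2 signal of each member's brightest probe minus the mean of the 3 Neo arrays. Points are arrays, horizontal bars means, whiskers SD (n = 3 per line), circles slide 1 and triangles slide 2. Ddit3 and Trib3 have all 3 MR 4-25 points above all 3 Neo points, and Psat1 has them below.

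Atf4, the transcription factor at the centre of the response, had log2 values of 4.38, 4.11 and 3.93 in Neo 1, 2 and 3 and 4.15, 4.36 and 4.13 in MR 4-25 1, 2 and 3. The lines overlapped, and the highest and the lowest value both belonged to Neo. The difference was 0.07 ± 0.18 (SE, n = 3 per line), with an adjusted p in limma of 0.912. Its 95% interval, -0.39 to 0.53, corresponds to 0.763- to 1.45-fold. The interval reflects the spread between samples on 1 probe, which may be technical, and does not bound the difference between the lines. The direction turned to -0.13 under normexp, to -0.03 without Neo 3 and to -0.0012 without MR 4-25 2.

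The genes whose centred values lay nearest to those of Atf4 over the 6 arrays, out of 12624 well above background on all of them, were Depdc5, Srp72 and Shb. Their root mean square log2 distances from Atf4 were 0.06, 0.07 and 0.07. With 6 arrays this ranks likeness of small array-to-array deviations and was given no test.

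Ddit3, also called Chop, encodes a C/EBP-family factor that Atf4 induces. Its log2 values were 1.51, 1.33 and 1.61 in Neo and 2.60, 2.21 and 3.18 in MR 4-25. Every MR 4-25 array was above every Neo array, and the highest was the dim array of slide 2.

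The processed signals of Ddit3 were 2121 to 2816 intensity units in Neo and 4216 to 5269.9 in MR 4-25, so the lines were apart before scaling too. The log2 difference was 1.18 ± 0.29 (SE), or 2.26-fold with a 95% interval of 1.38 to 3.73. The adjusted p in limma was 0.174, and the difference therefore did not pass. Within slides it was 0.98 on slide 1 and 1.57 on slide 2.

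Trib3, a pseudokinase that Atf4 and Ddit3 induce and that restrains them, had 2 probes without shared bases, described in the array files as transcript variants 1 and 2. The variant 1 probe (chr2:152078476-152078535) had values of 4.50, 4.92 and 4.30 in Neo and 5.72, 5.54 and 5.17 in MR 4-25. The variant 2 probe (chr2:152079146-152079205) had values of 2.71, 2.55 and 2.59 in Neo and 3.70, 3.27 and 3.46 in MR 4-25. On both probes every MR 4-25 array was above every Neo array.

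The difference on the variant 1 probe, which stood for the gene, was 0.91 ± 0.25 (SE), or 1.87-fold with a 95% interval of 1.22 to 2.89 and an adjusted p in limma of 0.213. The variant 2 probe gave 0.86 ± 0.17 (SE), 1.82-fold, with an adjusted p in limma over 30965 probes of 0.116. In that fit 401 probes (1.3%) were called, 0.694% higher and 0.601% lower, and none of the 14 member probes was. The differences within slides were alike, 0.92 and 0.87 on slides 1 and 2 for the first probe and 0.86 and 0.87 for the second.

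Groups without overlap were common in these data: all MR 4-25 arrays were above all Neo arrays in 11.2% of genes and below in 13.1%, or 24.3% together. Ddit3 and Trib3 were the 2 members of 10 above, and Psat1 the 1 member below. Over 20 fits, the reported one and 19 alternatives, Ddit3 ranged from 0.83 to 1.41 and Trib3 from 0.61 to 1.08, and both were positive in each. Fits that changed only the filter, the blocking factor or the variance trend repeated the reported differences, so they could not turn a sign. Both passed in the fit with array quality weights alone, at adjusted p in limma of 0.0367 and 0.0257, where the array of MR 4-25 3 carried a weight of 0.133 and that of MR 4-25 2 a weight of 4.72.

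**Figure D2:**
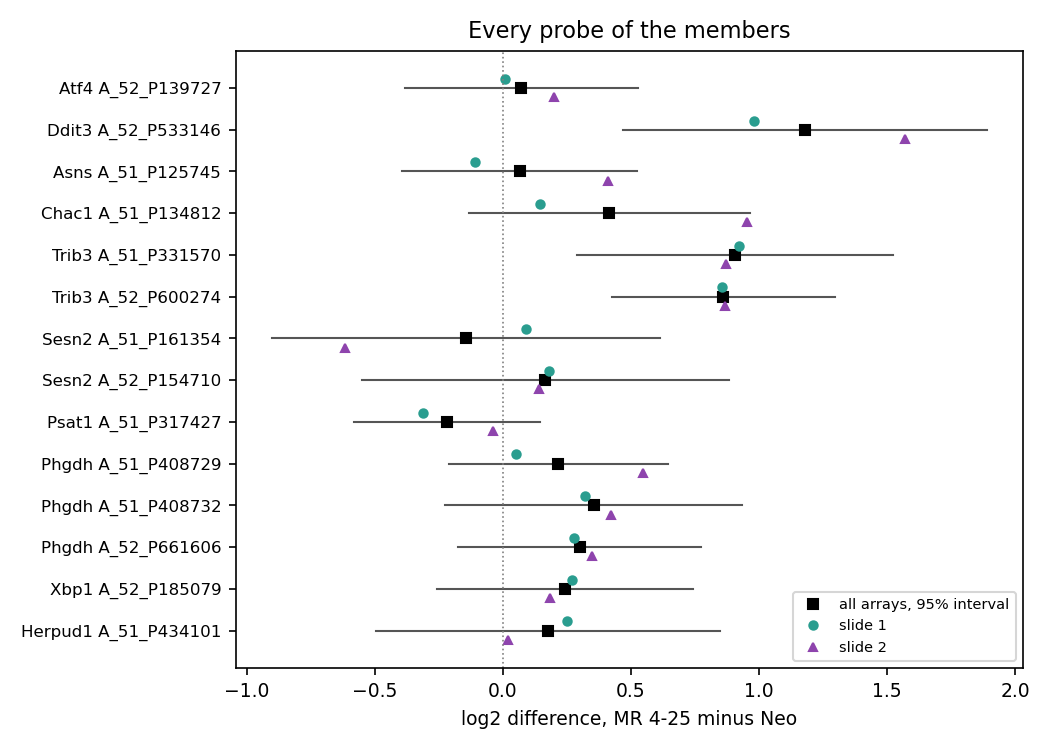
The horizontal axis gives the log2 difference, MR 4-25 minus Neo, of each of the 14 member probes, with squares for all arrays, bars for the 95% interval, circles for slide 1 and triangles for slide 2. The Ddit3 probe and both Trib3 probes have intervals above 0, and the other 11 intervals include 0.

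Chac1, an enzyme that breaks down glutathione and a target of Atf4 and Ddit3, had values of 3.99, 3.73 and 3.42 in Neo and 4.03, 3.98 and 4.38 in MR 4-25. The lines overlapped narrowly, Neo 1 being above MR 4-25 2 and the remaining Neo arrays below all of MR 4-25. The difference was 0.41 ± 0.22 (SE), with a 95% interval of -0.14 to 0.97 and an adjusted p in limma of 0.524. It was 0.15 on slide 1 and 0.95 on slide 2.

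Sesn2, sestrin 2, is induced by Atf4 and holds back mTORC1 when leucine is short. Its brighter probe (chr4:131870492-131870551) had values of 4.69, 4.53 and 4.07 in Neo and 5.0, 4.58 and 4.21 in MR 4-25, which overlapped. The difference was 0.17 ± 0.29 (SE) with an adjusted p in limma of 0.866. The other probe (chr4:131871376-131871435) differed by -0.15 ± 0.30 (SE) with an adjusted p in limma over probes of 0.877.

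The Sesn2 probes thus disagreed in sign, and neither difference exceeded the spread between arrays. On the second probe MR 4-25 3 was the lowest of 6 at 1.05, and slides 1 and 2 gave 0.09 and -0.62.

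Asns, asparagine synthetase and a classical target of Atf4 through the element shown above, had values of 7.50, 7.69 and 7.33 in Neo and 7.60, 7.37 and 7.74 in MR 4-25. The lines interleaved. The difference was 0.07 ± 0.18 (SE), with a 95% interval of -0.40 to 0.53 and an adjusted p in limma of 0.921. It was -0.11 on slide 1 and 0.41 on slide 2. Over the 20 fits it was positive in 13, several of which repeat the reported 0.07, and it was negative in 7 of the 19 alternatives.

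Phgdh and Psat1 encode the first enzymes of serine synthesis from glycolysis, and Atf4 regulates both. The brightest of 3 Phgdh probes had values of 7.41, 7.69 and 7.32 in Neo and 7.55, 8.20 and 7.74 in MR 4-25. MR 4-25 2 was the highest, and the lines overlapped. The difference was 0.35 ± 0.23 (SE) with an adjusted p in limma of 0.617.

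The other Phgdh probes differed by 0.22 ± 0.17 (SE) and 0.30 ± 0.19 (SE), with adjusted p in limma over probes of 0.649 and 0.566. The first shares 17 bases with the brightest probe, so it is not a separate reading. The second is the probe shown above that spans 709 bases. All 3 had overlapping lines.

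Psat1 had values of 5.02, 4.97 and 4.86 in Neo and 4.61, 4.75 and 4.82 in MR 4-25, and was the 1 member with a negative difference. Every MR 4-25 array was below every Neo array, by a margin of 0.04 between Neo 3 and MR 4-25 3, which are the arrays of slide 2. The difference was -0.22 ± 0.15 (SE), with a 95% interval of -0.59 to 0.15 and an adjusted p in limma of 0.621. It was negative in all 20 fits, some of which repeat the reported difference. It ranged from -0.42 to -0.16, with no adjusted p in limma under 0.158.

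Xbp1 encodes the transcription factor that Ire1 activates by splicing. Its probe gave 2.69, 2.20 and 2.31 in Neo and 2.81, 2.63 and 2.49 in MR 4-25. The lines overlapped through Neo 1 alone. The difference was 0.24 ± 0.20 (SE), with a 95% interval of -0.26 to 0.75 and an adjusted p in limma of 0.695. The probe lies on 1 uninterrupted stretch, and its place relative to the bases that Ire1 removes was not worked out. A single probe gives no share of the spliced form.

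Herpud1, a membrane protein of the endoplasmic reticulum that serves degradation of misfolded proteins and that both responses can induce, had values of 5.23, 5.04 and 4.86 in Neo and 5.70, 5.08 and 4.87 in MR 4-25. MR 4-25 1 was the highest, and the others overlapped with Neo. The difference was 0.17 ± 0.27 (SE) with an adjusted p in limma of 0.845. Without MR 4-25 1 it was -0.07.

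**Figure D3:**
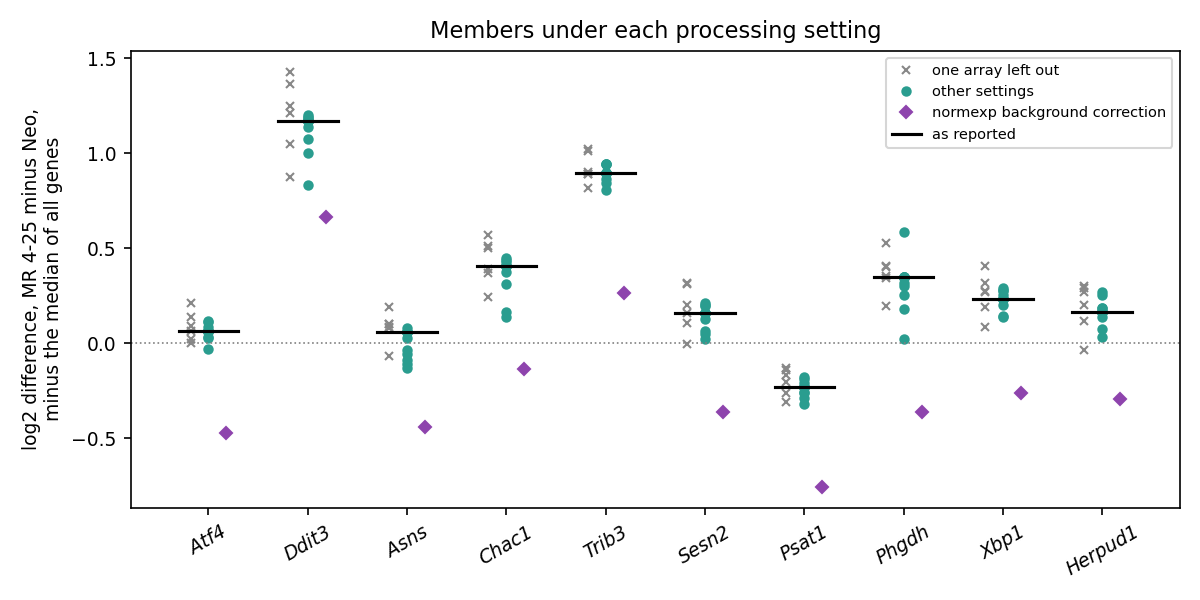
The vertical axis gives each member's log2 difference, MR 4-25 minus Neo, minus the median of all genes under that setting. Crosses leave out an array, circles are other settings, diamonds are normexp background correction and bars the reported values. Ddit3 and Trib3 stay above 0 throughout, Psat1 stays below 0, and the normexp diamonds lie below 0 for 8 of 10 members.

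Around the members, 89 further genes of both responses were measured in 9 lists. Slc7a11 rose and none fell in the limma fit over 21341 genes, where 144 genes (0.675%) rose and 119 (0.558%) fell. At an unadjusted p under 0.05, 13 of the 89 were higher and 5 lower, where 13.3% of all genes passed in either direction. With the replicate number as a block, 1 gene of 21341 passed and none of the 89 did. Of the 89 genes, 48 had a positive and 41 a negative difference. All MR 4-25 arrays were above all Neo arrays in 19 of them and below in 9, against 11.2% and 13.1% of all genes.

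Slc7a11, the cystine transporter subunit that supplies cysteine for glutathione, had log2 values of -1.29, -1.86 and -1.49 in Neo and 0.40, -0.12 and 0.24 in MR 4-25. Every MR 4-25 array was above every Neo array. The difference was 1.72 ± 0.24 (SE), 3.30-fold, with an adjusted p in limma of 0.0490, and it was 1.72 on slide 1 and 1.73 on slide 2. Its other probes differed by 2.25 and 1.64, with adjusted p in limma over probes of 0.0205 and 0.0478.

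The call of Slc7a11 was not stable: it was lost in 13 of 19 alternatives, with adjusted p in limma of 0.108 with the replicate block and 0.111 to 0.208 when an array was left out. The size ranged from 1.44 to 1.87. Of the other 8 amino acid transporters none passed, and Slc1a5, a glutamine and neutral amino acid carrier, was the most negative at -0.61 with an adjusted p in limma of 0.490.

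Among the 9 genes of eIF2 alpha phosphorylation, which include the Gcn2 and Perk kinases, none passed and 7 were negative, with a median of -0.09. Without MR 4-25 1 this turned to 6 positive and 3 negative, with a median of 0.11, and with array weights to 5 positive and 4 negative. Ppp1r15a, also called Gadd34, is the phosphatase subunit that Atf4 induces to reverse the phosphorylation. It differed by 0.96 ± 0.38 (SE), with all MR 4-25 arrays above all Neo arrays and an adjusted p in limma of 0.368. Eif2ak3 differed by -0.42 with an adjusted p in limma of 0.666.

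None of the 7 transcription factors that partner with Atf4 or follow it passed. Nupr1, a stress-induced chromatin protein, had values of 1.11, 1.05 and 0.95 in Neo and 2.58, 2.22 and 1.90 in MR 4-25, without overlap. Its difference was 1.20 ± 0.22 (SE), 2.30-fold, with an adjusted p in limma of 0.0937. The most negative was Jdp2, a repressor of the AP-1 family, at -0.14 with an adjusted p in limma of 0.745.

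None of the 11 enzymes of serine, one-carbon, proline and transsulfuration metabolism passed, with 5 positive and 6 negative differences. Shmt2, the mitochondrial serine hydroxymethyltransferase, was the 1 gene of the list without overlap, lower in MR 4-25 by -0.61 with an adjusted p in limma of 0.152, and it was named after its values were seen. Aldh1l2 and Cbs had the most negative and most positive differences, -0.73 and 0.63, but were above background on 5 and 4 of 6 arrays, with adjusted p in limma of 0.700 and 0.843.

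None of the 13 genes of the tRNA charging list, cytosolic aminoacyl-tRNA synthetases and the tRNA exporter Xpot, passed. Differences were negative for 11 of 13, with a median of -0.30. All MR 4-25 arrays were below all Neo arrays in 6 genes of the list, where 13.1% of all genes were. The list's median was -0.27 on slide 1 and -0.36 on slide 2. It lay below the median of all genes in each of the 19 alternatives, some of which repeat its reported value. Without MR 4-25 3 it was -0.19. Mars1, the methionyl enzyme, was lowest at -0.72 ± 0.22 (SE) with an adjusted p in limma of 0.247 on its brightest probe. Its other probe differed by -0.42, with an adjusted p in limma over probes of 0.443. Sars, the seryl enzyme, was highest at 0.70 ± 0.16 (SE) with an adjusted p in limma of 0.164.

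Mars1 is also the neighbour of Ddit3 on chromosome 10, on the opposite strand. The Ddit3 probe and the brightest Mars1 probe lie 1118 bases apart by the array's coordinates. Their differences had opposite signs, 1.18 for Ddit3 and -0.72 for Mars1, whose other probe gave -0.42.

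None of the 7 secreted and mTORC1-linked targets passed. Their median of -0.12 turned to 0.01 without Neo 3 and to 0.02 without MR 4-25 2. Fgf21, a secreted hormone that Atf4 can induce, differed by -1.31 ± 0.48 (SE) with an adjusted p in limma of 0.338, by -0.64 on slide 1 and -2.64 on slide 2. It was -0.05 under normexp and -0.81 without MR 4-25 3. The Fgf21 signal was dim, at 21.3 intensity units on MR 4-25 3 and 93.3 to 233 on the other arrays. Ddit4, an mTORC1 inhibitor, differed by 0.40 with an adjusted p in limma of 0.663.

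**Figure D4:**
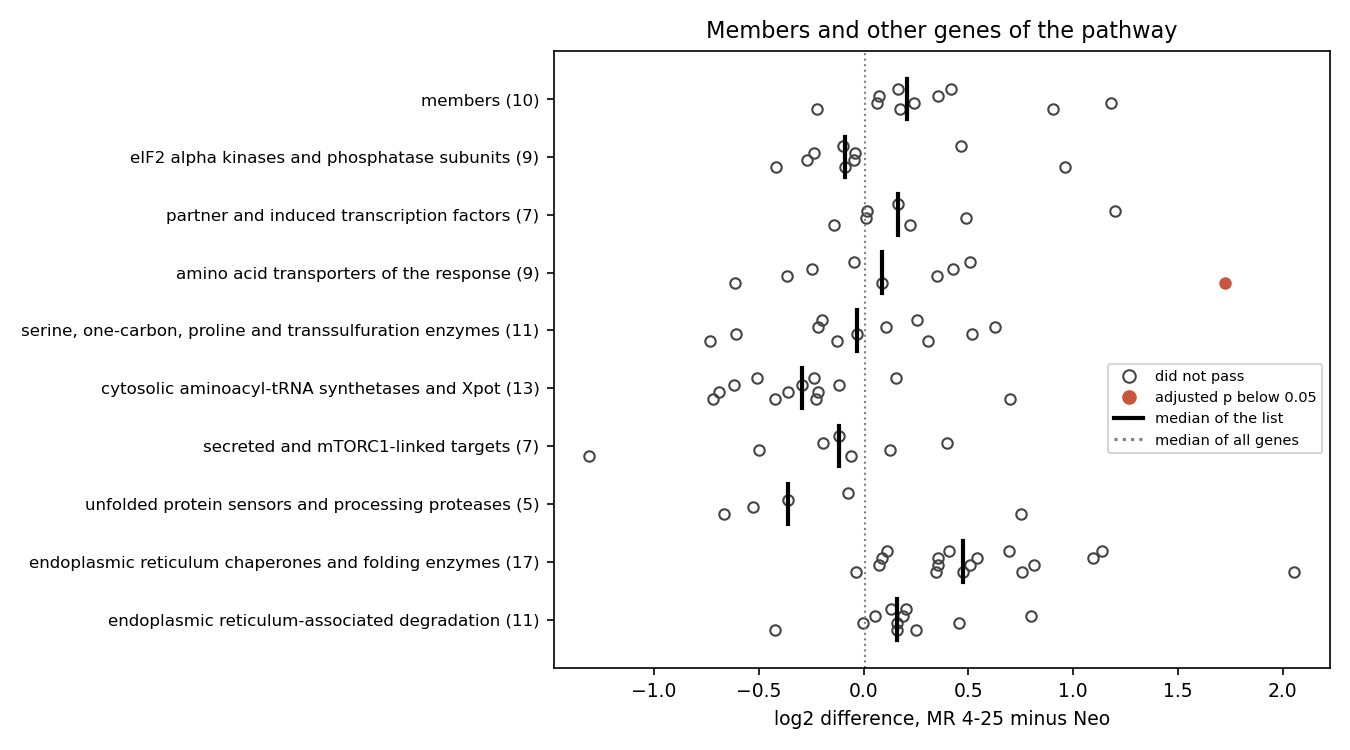
The horizontal axis gives the log2 difference, MR 4-25 minus Neo, of each gene by list, with the number of measured genes in brackets. Open circles did not pass, the filled circle is Slc7a11, black bars are list medians and the dotted line is the median of all genes. The chaperone list has a median of 0.48 and the tRNA charging list one of -0.30, on either side of the median of all genes.

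For the arms of the unfolded protein response beyond Atf4, none of 5 sensors and processing proteases passed. The list's median of -0.36 came to -0.10 for slide 1 and -0.49 for slide 2, and it was -0.17 without MR 4-25 3, -0.19 without Neo 3, -0.55 without MR 4-25 1 and -0.08 with array weights. Atf6, the membrane-bound factor, differed by 0.75 ± 0.23 (SE), and Mbtps1, the site-1 protease that cuts it, by -0.67 ± 0.16 (SE). Both were without overlap between lines, with adjusted p in limma of 0.246 and 0.172.

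None of the 17 chaperones and folding enzymes of the endoplasmic reticulum passed. At an unadjusted p under 0.05, 6 were higher, where 13.3% of all genes passed in either direction. Differences were positive for 16 of 17, with a median of 0.48, and 11 had all MR 4-25 arrays above all Neo arrays, where 11.2% of all genes did. The median was 0.35 on slide 1 and 0.53 on slide 2, but under normexp it was 0.23, below the median of all genes, with 7 of 17 genes above that median. Without MR 4-25 3 the list's median was 0.49.

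By the naming rule, Dnajb9 and Dnajb11 were the extremes of that list. Dnajb9 differed by 2.06 ± 1.13 (SE), with an adjusted p in limma of 0.540, and was above background on 1 Neo and 2 MR 4-25 arrays. Dnajb11 differed by -0.04 with an adjusted p in limma of 0.954. Named after their values were seen, the thiol oxidase Ero1a and the disulfide isomerase P4hb lay just short of the threshold, at 1.09 ± 0.16 (SE) and 1.14 ± 0.17 (SE), with adjusted p in limma of 0.0539 and 0.0553. Hspa5 (BiP), the chaperone that holds the sensors inactive, had values of 6.58, 6.51 and 6.25 in Neo and 6.93, 6.86 and 6.61 in MR 4-25. The lines did not overlap, and the difference was 0.35 ± 0.18 (SE) with an adjusted p in limma of 0.491.

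None of the 11 genes of endoplasmic reticulum-associated degradation passed, with 9 positive and a median of 0.16. The median was 0.06 with array weights, and under normexp 2 of 11 lay above the median of all genes. Sel1l, the scaffold of the Hrd1 ubiquitin ligase, differed by 0.80 ± 0.14 (SE) with an adjusted p in limma of 0.0854 on its brightest probe and by 0.55 and 0.05 on the others. Os9, a lectin that delivers glycoproteins to that complex, differed by -0.42 with an adjusted p in limma of 0.469.

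The arrays of a line also differed among themselves in the members' values. Relative to the mean of its line, Neo 3 was low in 9 of 10 members, with a median deviation of -0.18, where the median of all genes on that array was -0.06. Neo 1 was high in 7 of 10, with a median of 0.13. In MR 4-25, 4 or 5 of 10 members were high on each array, and the largest deviation was that of Ddit3 on MR 4-25 3, at 0.52.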

How the data were processed

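The authors deposited the scanner files, whose background-subtracted Cy3 intensity signals were used. Per the file headers these came from Feature Extraction 9.5.3.1, and version 9.5 is named in the submitters' processing notes. The series' value table was identical to the processed signal. Gene spots (43379 per array) were averaged per probe on the log2 scale, and each array was scaled by subtracting the log2 75th percentile of its gene spots. The filter kept 30965 probes that were flagged well above background by 3 or more of the 6 arrays, and the brightest probe stood for each gene (21341). MR 4-25 was set against Neo in limma 3.58.1 under R 4.3.3 (lmFit, eBayes, 3 arrays per line), and p-values were adjusted by Benjamini-Hochberg. The number of arrays limits the precision.

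The members and lists were chosen with earlier results of these data known. Every member is given with every probe. In the other lists, genes that passed and each list's most positive and most negative gene are named, beside a few chosen after their values were seen. Synthetases were matched through older symbols.

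The array barcode in the name of each deposited scan gave the slides, and each slide holds both lines. The labels pair arrays by number alone. After subtracting each line's mean, same-numbered arrays correlated at 0.29, 0.21 and 0.56 across genes, each above 0.1. The numbers were used as pairs only in the replicate block, an alternative, and the reported fit had no block. Crossed arrays of slide 1 correlated more than its same-numbered arrays, at 0.41 and 0.38. The numbers are therefore not shown to be pairs within that slide, and numbers and slides are not separated. The procedure was run on simulated data with independent noise per gene and array. That simulation held no slide effect and no dim array, so it cannot show how calls behave under them. Alternatives were normexp (offset 50), quantile normalization, both together, median scaling, no filter, a filter on 6 arrays, the mean over probes, the value table, a trend with a robust fit, array weights, a block for slide or for replicate number, the arrays of slide 1 only, and each array left out in turn. Figures were drawn with matplotlib 3.10.9.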

Additional observations from a re-analysis of the deposited data

How the results depend on the processing

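Over 19 alternatives, 173 of 190 values of the 10 members kept their direction and their side of the threshold, 15 turned direction and 2, Ddit3 and Trib3 with array weights, came to pass. The value table, the trend with a robust fit, both blocks, no filter and the filter on 6 arrays left every member's difference unchanged. Direction could not turn in those settings, so their values say nothing about its stability. Members called numbered 2 with array weights and 0 in the other 18. Genes called numbered 263 as reported, 77 with normexp, 512 with normexp and quantile, 524 with the filter on 6 arrays, 718 with trend and robust fit, 2018 with array weights, 1 with the replicate block, 124 on slide 1 alone, and 0 to 223 when an array was left out. Probes called numbered 401 as reported and, in that order, 90, 811, 751, 978, 2991, 1 and 172, with 224 without the filter and 6 to 308 when an array was left out. Of the 89 pathway genes, 1 was called as reported, 4 with normexp and quantile, 5 with the filter on 6 arrays, 10 with trend and robust fit, 13 with array weights, and 0 with normexp, quantile, median scaling, no filter, the slide block, the replicate block, slide 1 alone or any array left out. Apart from these counts and Slc7a11, the replicate block changed no call.

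Direction turned under normexp for Atf4 (-0.13), Asns (-0.10), Sesn2 (-0.023), Phgdh (-0.022) and Aldh1l2 (0.47). Asns was -0.11 with quantile, -0.038 with normexp and quantile, -0.13 with array weights and -0.11 on slide 1 alone. Dnajb11 was 0.14 with array weights, and Cbs was -0.039 on slide 1 alone. With an array left out, values ranged from -0.033 to 0.19 for Atf4, -0.022 to 0.17 for Asns, -0.037 to 0.36 for Sesn2, -0.068 to 0.35 for Herpud1, -0.40 to 1.17 for Cbs and -0.17 to 0.034 for Dnajb11. The causes were not tested. In limma, 0 genes were called without Neo 1 or Neo 2, 6 without MR 4-25 2, 9 without MR 4-25 1 and 36 without Neo 3. Dim signal limits Dnajb9, Cbs and Aldh1l2, which were not above background on every array. The same holds for Gdf15, Vldlr and Derl3, which enter the medians and counts of their lists.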
